A study of Mus musculus and Rattus norvegicus with 37 samples.

Results

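The 40 genes described here encode the complement and coagulation factors of blood plasma, most of which are made by hepatocytes. They were chosen by gene symbol and not by a limit on measured values, although earlier results of these data were known. Each had a single entry of its own among the 48440 gene entries of both mouse tables. Of the 40, 36 had a single entry of their own among the 32750 entries of both rat tables. Liver RNA from 21 mice and 16 rats was sequenced as poly(A)-selected libraries, and each library stood for 1 animal.

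The mice were female C57BL/6J. The WT/Floxed group pooled wild type mice aged 9 to 11 weeks with floxed mice aged 15 to 20 weeks, and the L-Sirt1 KO mice, littermates of the floxed mice at the same age, had Sirt1 deleted in the liver by a driver that is not given in the sources used here. Mice received 1 subcutaneous injection of saline or of LNA29, a mixture of locked nucleic acid oligonucleotides against miR-29a and against miR-29b/c at 20 mg/kg each, and livers were taken at day 7 in the fed state. The WT/Floxed group held 5 saline mice (3 wild type and 2 floxed) and 8 LNA29 mice (4 wild type and 4 floxed), and the L-Sirt1 KO group held 4 and 4; the authors left out 1 further floxed saline mouse. The rats were male Zucker fatty rats (ZFR), which lack a working leptin receptor (fa/fa), and Zucker lean rats (ZLR), 4 of each at 5.5 months of age. A further 4 and 4 ZFR aged 3 months, also fa/fa in both arms, were injected daily for 1 week with DMSO vehicle or with 20 mg/kg of BT2, an inhibitor of the kinase that switches off branched-chain α-ketoacid dehydrogenase. Values are normalised counts, scaled within each of the 4 tables on its own, so that levels were compared only within a table.

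Coagulation is a relay of serine proteases. The contact factors and the vitamin K-dependent factors activate one another on surfaces until thrombin cuts fibrinogen into fibrin, which plasmin later dissolves. Complement is a parallel relay in which the classical and lectin pathways and the alternative pathway converge on C3, and the late components C5b to C9 assemble a pore called the membrane attack complex. The liver secretes nearly all of these proteins, and fibrinogen, C3 and several others belong to the acute phase response, in which hepatocytes shift their output during inflammation. Exceptions are factor D, made chiefly in fat, properdin, made by myeloid cells, and factor VIII, made by liver endothelium.

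The inhibitors were directed at the miR-29 family, whose mature members share one seed. The RefSeq sequences are shown on GRCm38.p6 with bases 2 to 8 in capitals, since these bases pair with target sites. miR-29a-3p lies on the minus strand at chr6:31062673-31062694 and miR-29c-3p on the plus strand at chr1:195037600-195037621.
mmu-miR-29a-3p: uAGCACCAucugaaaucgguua
mmu-miR-29b-3p: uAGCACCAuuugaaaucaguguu
mmu-miR-29c-3p: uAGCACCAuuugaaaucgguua
The complement of the seed, TGGTGCT, was searched for in the 3′ UTR of every annotated transcript of each gene. It was found in 0 of the 40 complement and coagulation factors, in 7 of 52 other genes of the pathway (13.5%) and in 2545 of the 13532 tested genes that had an annotated 3′ UTR (18.8%). The 3′ UTRs of the 40 factors were short, with a median of 406.5 bases for the longest of each gene, against 1326 over all tested genes. The absence of these letters says nothing about sites of other kinds. As a check of the treatment, Col3a1, a collagen that carries such a site, rose with LNA29 from 2204 ± 565 to 5088 ± 1497 normalised counts in WT/Floxed mice (SD, n = 5 and 8; log2 fold change 1.19, limma adjusted p = 0.0162). In L-Sirt1 KO mice Col3a1 rose from 2074 ± 475 to 6945 ± 1609 (n = 4 and 4; 1.74, limma adjusted p = 0.00783).

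The libraries differed in depth. Estimated totals were 42.6 to 78 M reads in mice (M for mega) and 0.188 to 58.5 M in rats, where 6 of 16 libraries lay under 1 M and 1 read was worth up to 10.5 normalised counts. Sirt1 counts did not check the knockout label. They were 552.7 to 616.5 in L-Sirt1 KO saline mice and 492.7 to 699.1 in WT/Floxed saline mice, in tables normalised separately. A count for the whole gene does not show which exons were read. The paper separately measured hepatic Sirt1 in both genotypes by RT-qPCR. Albumin, which defines hepatocytes, stood between 3289000 and 6181000 normalised counts in the mice and between 145700 and 245000 in the rats. These are bulk livers, so fewer cells of a type cannot be told apart from less RNA per cell.

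The 40 factors together took 3.62 to 4.84% of all normalised counts in the mouse livers and 4.36 to 7.04% in the rat livers. Within saline-treated WT/Floxed livers, levels per kilobase of merged exons spanned more than 4 orders of magnitude. C3, on which all complement pathways converge, stood at 97070 ± 12500 normalised counts per kilobase (mean ± SD, n = 5), with the fibrinogen γ chain gene Fgg at 97000 ± 4540 and the α chain gene Fga at 91400 ± 10200. These 3 did not differ beyond their spread. The fibrinogen β chain gene Fgb followed at 66410 ± 4980 and vitronectin, Vtn, at 65580 ± 9170, again within their spread of each other. Plasminogen, Plg, stood at 43500 ± 2900 per kilobase and high molecular weight kininogen, Kng1, at 38420 ± 1380. At the low end were Masp1 at 259.6 ± 80, C6 at 252.3 ± 81.5, the factor VIII gene F8 at 66.5 ± 17.5 and the factor D gene Cfd at 6.43 ± 6.46.

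Several of the genes are neighbours. On GRCm38 the fibrinogen genes lie side by side on chromosome 3, with Fgg at chr3:83007724-83015049 on the plus strand, Fga at chr3:83026076-83033627 on the plus strand and Fgb at chr3:83040141-83049863 on the minus strand. C8b, at chr4:104766317-104804548 on the plus strand, and C8a, at chr4:104815679-104876398 on the minus strand, encode 2 chains of complement component 8 and are 11131 bases apart. F11 and Klkb1, which encode factor XI and plasma prekallikrein, are 4658 bases apart on chromosome 8, and Cfb and C2 are 86 bases apart on chromosome 17.

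The first comparison was LNA29 against saline in WT/Floxed mice. Among the 40 factors 1 rose and 0 fell under the rule used for mice, which asks for an unadjusted p under 0.05 with an adjusted p under 0.2, for a fold change of more than 1.2 either way, and for a mean normalised count over 50. That is 2.5% of the factors, against 4.35% of the 15811 genes tested, of which 2.42% rose and 1.93% fell. The median log2 fold change of the 40 was 0.02, against 0.00 over all genes, and 21 of the 40 changed by less than 0.1 on the log2 scale. At an unadjusted p under 0.05 there were 6 of 40 (15%), of which 5 were higher and 1 lower, against 13.3% of all genes (6.82% higher and 6.5% lower). In the plot of fold changes in mice, nearly all factors sit close to 0.

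**Figure D1:**
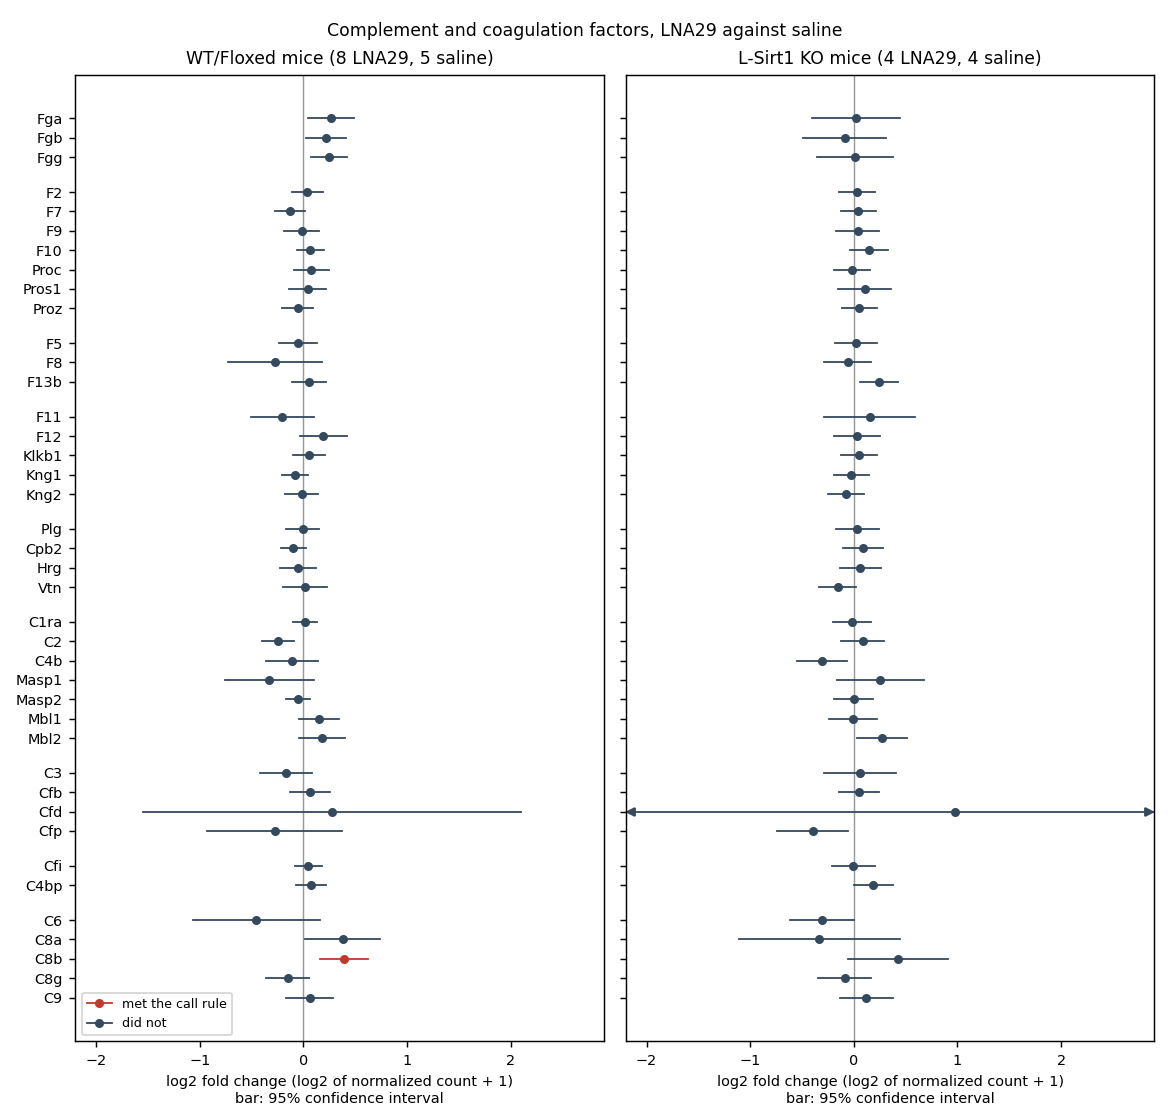
Log2 fold change (log2 of normalised count + 1) of LNA29 over saline for the 40 factors in WT/Floxed mice (left, 8 and 5 mice) and L-Sirt1 KO mice (right, 4 and 4 mice), grouped by role. Points are limma estimates, bars are 95% confidence intervals, red marks the 1 factor that met the call rule (C8b, 0.39), and the bar of Cfd in L-Sirt1 KO mice, drawn with arrowheads, runs past the axis at both ends.

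C8b, which encodes the β chain of C8 in the membrane attack complex, was the factor that rose. Its normalised counts were 6470.3, 7114.5, 8515.9, 7668.8 and 6924 in the 5 saline livers. In the 8 LNA29 livers they were 7888.9 at the lowest, 10045 at the median and 12070 at the highest. The groups overlapped, since the highest saline liver lay above the 3 lowest LNA29 livers. The means were 7339 ± 786 and 9709 ± 1527 (SD, n = 5 and 8), a log2 fold change of 0.39 ± 0.109 (SE; 95% confidence interval 0.16 to 0.63; limma with Benjamini-Hochberg adjustment, adjusted p = 0.103). A 2-sided exact permutation test on the log2 values of C8b alone gave p = 0.0101. The difference was 0.29, 0.36 and 0.43 within the 3 sequencing flow cells, and 0.33 in wild type and 0.48 in floxed mice. The 0.29 rests on saline replicate 3 as the only saline liver of its flow cell. Without saline replicate 1, the lowest saline liver for C8b, 0 of the 40 factors met the rule, whereas 3 did without LNA29 replicate 1 (C2, C8b and Fga) and 2 without LNA29 replicate 3 (C8b and Fgg).

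C8a, the neighbouring gene for the α chain of C8, was 8885.2, 14323, 12900, 12129 and 14087 in the saline livers. In the LNA29 livers it was 11798 at the lowest, 15816 at the median and 24216 at the highest. The groups overlapped over most of the saline range, with saline replicate 1 low and apart from the other saline livers. An exact permutation test, 2-sided, gave p = 0.0746. C8a stood at 0.38 on the log2 scale (95% confidence interval 0.02 to 0.74; limma adjusted p = 0.35), short of the rule. C8g, for the γ chain, was at -0.15 and C9, the pore-forming component, at 0.06, and neither passed.

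C6, which joins the growing membrane attack complex after C5b, had the widest difference in size and did not pass. Its saline values were 680.91, 854.97, 1321.2, 1031.2 and 598.09. Its LNA29 values ran from 366 through a median of 619.14 to 1472.3, the last in replicate 4. The LNA29 range enclosed the whole saline range, and the log2 fold change of -0.45 had a confidence interval of -1.06 to 0.16 (limma adjusted p = 0.552). It shrank to -0.30 without saline replicate 3 and to -0.11 without LNA29 replicates 1 to 3, a choice made after seeing the data.

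**Figure D2:**
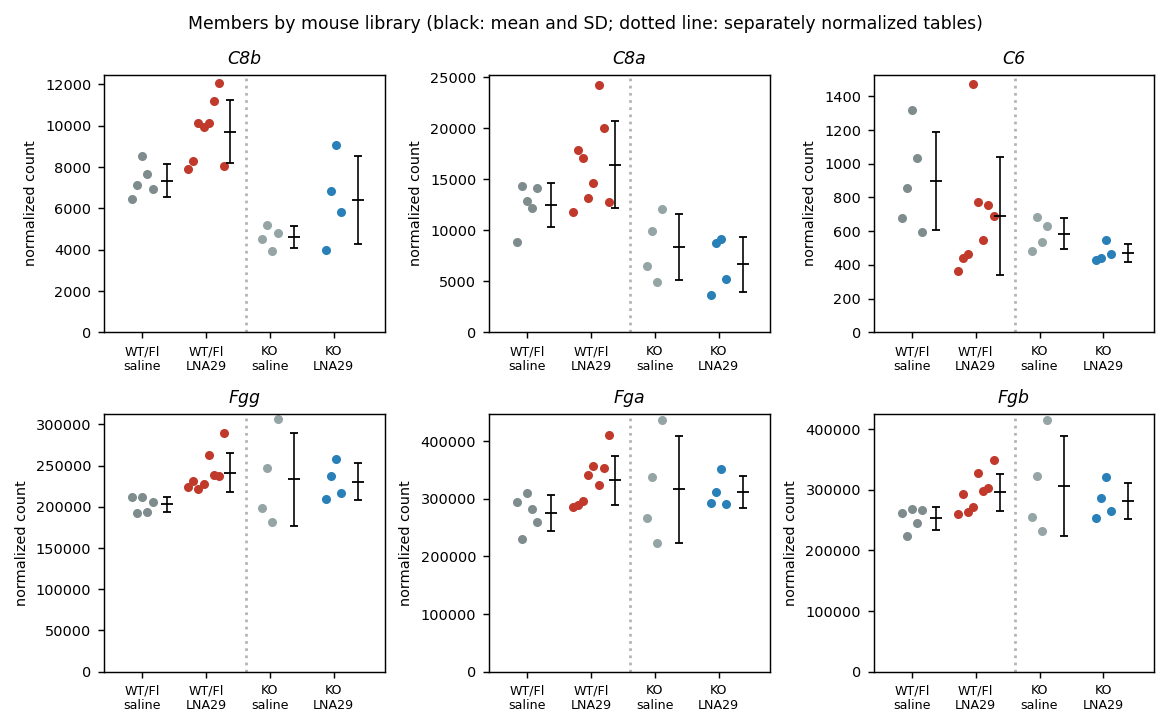
Normalised counts (linear axis from 0) of C8b, C8a, C6 and the fibrinogen genes Fgg, Fga and Fgb, one point per mouse, with the mean and SD in black; the dotted line separates the WT/Floxed and L-Sirt1 KO tables, which were normalised separately. For Fgg all 8 WT/Floxed LNA29 points, from 221970 up, lie above the 5 saline points, the highest of which is 211990.

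The 3 fibrinogen chains were each higher with LNA29 in WT/Floxed mice at an unadjusted p under 0.05, and none met the rule. Fgg was 211700, 192460, 211990, 193620 and 205370 in the saline livers. In the LNA29 livers it ran from 221970 through a median of 234540 to 289670. Every LNA29 liver was above every saline liver, as was so for 1 of the 40 factors (2.5%) and for 1.51% of all genes tested (0.942% in this direction). Fgg met the p limits (log2 fold change 0.25 ± 0.0797, SE; 95% confidence interval 0.08 to 0.42; limma adjusted p = 0.167; exact permutation p = 0.00155, 2-sided), but its fold of 1.19 was under 1.2. Fga ran from 230650 to 309290 in saline and from 285150 to 410340 in LNA29 livers, with overlap (0.27, limma adjusted p = 0.272). Fgb ran from 223580 to 268450 and from 259480 to 348160, also with overlap (0.22, limma adjusted p = 0.293).

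The difference of the fibrinogen genes was uneven over batches and backgrounds. It was 0.39, 0.49 and 0.35 for Fgg, Fga and Fgb on one flow cell and 0.14 to 0.19 on the other flow cells. It was 0.34, 0.49 and 0.33 in floxed mice and 0.16, 0.10 and 0.12 in wild type mice. The first of these flow cells sets LNA29 replicates 7 and 8 against saline replicates 4 and 5, and saline replicate 3 is the only saline liver of its own. Only saline replicates 2 and 5 were floxed. Background cannot be told apart from age, which was 15 to 20 weeks in floxed and 9 to 11 weeks in wild type mice. These splits were not tested. In the same livers 5 of 13 acute phase genes fell and 0 rose, namely Saa2 (log2 fold change -1.48), Lcn2 (-1.02), Saa1 (-0.91), Orm2 (-0.86) and Orm1 (-0.73), so the fibrinogen genes and these genes lay on opposite sides of 0.

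C2, the protease of the classical and lectin C3 convertase, was the only factor with an unadjusted limma p under 0.05 that was lower with LNA29. It ran from 5292 to 5779.5 in saline livers and from 4146.1 through a median of 4577.3 to 5512.2 in LNA29 livers. Its log2 fold change was -0.24 (limma adjusted p = 0.127), and its fold of 0.844 was short of the rule. By the exact permutation test Kng1 (-0.08) and Cpb2 (-0.10) were lower too, with p = 0.0256 each. Their unadjusted limma p was 0.17 and 0.102. Reads of C2 cannot be told apart with certainty from those of Gm20547, which overlaps it on the same strand.

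The other roles moved little in WT/Floxed mice. The 7 vitamin K-dependent factors, which include prothrombin (F2) and the anticoagulant proteins C and S, lay between -0.13 (F7) and 0.08 (Proc). The 5 contact genes lay between -0.20 (F11) and 0.19 (F12), and the 4 genes of fibrinolysis and plasma adhesion between -0.10 (Cpb2) and 0.02 (Vtn). The remaining classical and lectin genes lay between -0.33 (Masp1) and 0.18 (Mbl2), and the regulators Cfi and C4bp at 0.05 and 0.07. The cofactor genes F5 and F8 stood at -0.05 and -0.27, F13b at 0.06 and the factor B gene Cfb at 0.07. C3 stood at -0.17 (95% confidence interval -0.42 to 0.08). None of these passed.

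Properdin, encoded by Cfp, stabilises the alternative C3 convertase. In WT/Floxed LNA29 livers it ranged from 682.76 in replicate 1 to 3099.8 in replicate 4, against 1190.6 to 1905.2 in saline livers (log2 fold change -0.28, not passed). The macrophage gene Cd5l was 1743 and 10960 in those same livers, and across the mouse livers Cfp and Cd5l were high and low together, as the plot of Cfp against Cd5l shows. Of 8 Kupffer cell and macrophage markers 0 passed, with a median of -0.43, and their summed level was 13480 to 23650 in saline and 7343 to 40600 in LNA29 livers. When the 3 LNA29 livers with the lowest level of these markers (replicates 1 to 3, chosen after seeing the data) were left out, 5 factors met the rule, namely C2, C8b, Fga, Fgb and Fgg. Calls rose over all genes too, to 642 higher and 670 lower of 15781 tested, from 383 and 305 of 15811. Those 3 livers were also the only LNA29 livers on flow cell HMLJ2BGX3, where saline replicates 1 and 2 were run. The part of macrophages in the factors' values, and of flow cell in this change, was not tested.

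The second comparison asked the same question in L-Sirt1 KO mice. Here 0 of the 40 factors met the rule, against 1.87% of the 15885 genes tested, with limma adjusted p from 0.302 to 0.995. That background rests on single livers, since 189 higher and 108 lower genes became 56 and 21 without LNA29 replicate 4, 64 and 21 without LNA29 replicate 2, and 63 and 24 without LNA29 replicate 3. At an unadjusted p under 0.05 there were 5 (12.5%, against 11.2% of all genes). By the exact permutation test p was 0.0286 for F13b and 0.0571 to 0.0857 for C4b, C4bp, Cfp and Mbl2. The groups did not overlap for 2 (5%), against 6.95% of all genes. The median log2 fold change was 0.03, and 25 factors lay within 0.1 of 0. Without saline replicate 2, C4b met the rule, and without LNA29 replicate 1, C8b and Cfp did; no single factor met it in both.

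F13b, for the carrier subunit of factor XIII that cross-links fibrin, had the lowest p. It was 10304, 11808, 12334 and 10991 in the saline livers and 12753, 13247, 14080 and 13536 in the LNA29 livers. All 4 LNA29 livers were above all 4 saline livers. The means were 11360 ± 894 and 13400 ± 555 (SD, n = 4 and 4), a log2 fold change of 0.24 ± 0.0809 (SE; limma adjusted p = 0.302). The exact permutation p of 0.0286 for F13b is the smallest that 4 against 4 allows. The difference within flow cells was 0.25, 0.34 and 0.22, where the 0.25 sets LNA29 replicate 3 against saline replicate 2 alone. Vtn was the other factor without overlap, lower with LNA29 (-0.16, limma adjusted p = 0.527).

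C8b was 4503.4, 5218.4, 3933 and 4784.9 in the saline livers of L-Sirt1 KO mice. With LNA29 it was 3978.3, 6829.3, 9070.5 and 5813.6. Of the LNA29 livers 3 were above every saline liver and replicate 1 lay among them. The log2 fold change was 0.42, with a confidence interval of -0.06 to 0.91 (limma adjusted p = 0.516), and with 1 liver left out it ran from 0.24 (without LNA29 replicate 3) to 0.63 (without LNA29 replicate 1). C8a was at -0.33 (limma adjusted p = 0.764), on the other side of 0 from its value in WT/Floxed mice.

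Cfp was 1624.9, 1677.2, 1600.5 and 1630 with saline and 1623.3, 959.9, 1403.4 and 1088.3 with LNA29. The saline livers were tightly bunched, and 3 of the 4 LNA29 livers lay below them. The log2 fold change of -0.39 did not pass (limma adjusted p = 0.376). Beside it, 2 of the 8 Kupffer cell markers fell, Clec4f (-0.29, limma adjusted p = 0.19) and Vsig4 (-0.54, limma adjusted p = 0.0891), and the summed marker level was 16240 to 19530 with saline and 13060 to 16400 with LNA29. Of the 8 markers 7 were lower and 1 was higher, at 0.71, with a median of -0.34. Their part in the lower Cfp was not tested.

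Cfd, for factor D, the protease that activates factor B, was 0, 0.930, 1.93 and 861.52 with saline and 328.02, 0, 79.6 and 1.77 with LNA29. A few livers of either group held nearly all of it. The adipocyte hormone gene Adipoq was 0.975, 1.64, 0 and 150.1 with saline and 35.99, 4.22, 15.14 and 0 with LNA29, highest in the same livers. The 6 adipocyte markers summed to 28.27 to 423.4 with saline and 39.92 to 171.3 with LNA29, and their part in the Cfd counts was not tested. The log2 fold change of 0.98 had a confidence interval of -4.34 to 6.30 and changed sign when a saline liver was left out (-0.04 without saline replicate 1), so no direction can be given.

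**Figure D3:**
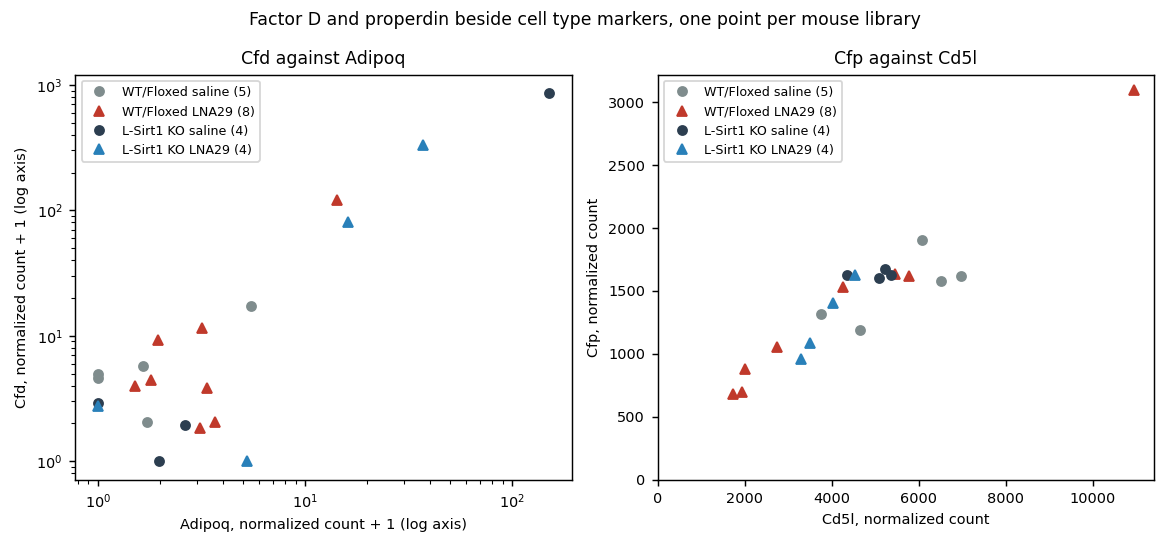
Normalised counts of Cfd against the adipocyte gene Adipoq (left, both + 1 on log axes) and of Cfp against the macrophage gene Cd5l (right, linear axes), one point per mouse, with circles for saline and triangles for LNA29. The highest Cfd (861.52) is in the liver with the highest Adipoq (150.1), and the highest Cfp (3099.8) in the liver with the highest Cd5l (10960); the points come from 2 tables that were normalised separately.

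The fibrinogen genes lay near 0 in L-Sirt1 KO mice, with log2 fold changes of 0.02 (Fga, 95% confidence interval -0.41 to 0.45), -0.09 (Fgb, -0.49 to 0.31) and 0.01 (Fgg, -0.36 to 0.37) and limma adjusted p of 0.98, 0.887 and 0.991; the estimates in WT/Floxed mice lie inside these intervals. Their saline livers were spread widely, with replicate 4 highest at 436560, 415450 and 306470. In that liver the acute phase gene Saa1 was 6080, against 983 to 1255 in the other saline livers. Without that liver 0 of the 40 factors met the rule, beside 101 higher and 32 lower of 15891 genes. The other saline livers ran from 223080 to 338050 for Fga, 231180 to 322740 for Fgb and 181690 to 247000 for Fgg. The LNA29 livers ran from 291060 to 350850, 253810 to 321200 and 209260 to 258290. Without the highest saline liver each fold change moves up, by an amount not given here, so these values near 0 depend on it. Elsewhere C4b, the fourth component, was at -0.31 (limma adjusted p = 0.326), the mannose-binding lectin gene Mbl2 at 0.27 (0.389) and C4bp, which binds C4b, at 0.19 (0.443), all with an unadjusted p under 0.05. Reads of C4b may be shared with its close paralogue. The vitamin K-dependent factors lay between -0.02 and 0.15 and the contact genes between -0.07 and 0.15.

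Whether the LNA29 response differed between the genotypes was tested by an interaction term over both tables. It was past an adjusted p of 0.2 for 0 of the 40 factors and for 0.0449% of the 15601 genes tested. C2 had the lowest p of the 40, with a difference of 0.33 ± 0.112 (SE) between L-Sirt1 KO and WT/Floxed mice and a limma adjusted p of 0.366. At an unadjusted p under 0.05 there was 1 factor, against 9.14% of all genes. The scaling of each table cancels within its own LNA29 against saline difference, apart from the 1 added to each count. Genotype cannot be told apart, in part, from age.

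Of 66 other complement and coagulation genes (receptors, inhibitors and regulators of these cascades), 54 were tested in each mouse table. None met the rule in WT/Floxed mice, where 1 was higher and 5 lower at an unadjusted p under 0.05. In L-Sirt1 KO mice Cd93, a receptor once assigned to C1q, rose with LNA29, from a range of 241.9 to 273.4 to one of 347.4 to 534.6 (log2 fold change 0.71, limma adjusted p = 0.0887). Vsig4, a macrophage receptor for C3b, fell by 0.54 on the log2 scale (limma adjusted p = 0.0891).

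The third comparison, ZFR against ZLR, asked how obesity with a defective leptin receptor bears on liver expression. Under the rule for rats, an adjusted p under 0.05, 5 of the 35 factors tested fell and 0 rose. That is 14.3%, against 4.25% of the 8633 genes tested, of which 2.46% fell and 1.8% rose. The median log2 fold change of the 35 was -0.20, against 0.07 over all genes. At an unadjusted p under 0.05 there were 14 lower and 3 higher factors, 48.6% of the 35 against 16.6% of all genes (8.17% lower and 8.39% higher). For 10 factors every ZFR liver was below every ZLR liver (28.6%), against 6.68% of all genes, and for 0 was every ZFR liver above, against 7.8% (14.5% of genes in either direction). For these 10 the exact permutation test gave p = 0.0286, the smallest that 4 against 4 allows. It gave p from 0.0571 to 0.114 for C4b, C9, F2, F7, F11, Kng1 and Masp2, which had an unadjusted limma p under 0.05. Of the remaining 5 factors, C1ra, Kng2 and C4bp had no entry, Mbl2 was at most 0.448 in any library and Cfb had 2 entries of different level, so none of these was tested.

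Sequencing depth was uneven here, and it touches every value below. ZLR libraries held 56.4, 46.1, 0.188 and 0.189 M estimated reads and ZFR libraries 58.5, 1.56, 0.952 and 1.24 M. In ZLR replicates 3 and 4, 1 read was worth 10.5 and 10.4 normalised counts, near the lowest mean of a tested gene, 10. The factors that fell had means from 538.5 (Klkb1) to 8936 (Fgb). The shares over all genes given above were not matched to the factors in level, so they compare unlike genes. Without the 3 libraries under 1 M, which leaves ZLR livers of 1 flow cell only, 1 of 35 factors (Klkb1) passed the rule. Over all genes 252 were then higher and 190 lower of 8621 tested, against 155 and 212 of 8633 with all libraries kept. The fewer factors therefore did not go with fewer calls over all genes. With TMM scaling 1 factor (Klkb1) passed, beside 109 higher and 138 lower of 8640 genes. Leaving out 1 library at a time gave 2 factors, Klkb1 and Plg, without ZLR replicate 2, ZFR replicate 3 or ZFR replicate 4. It gave 3 factors without ZLR replicate 1 (Fga, Klkb1 and Plg) or ZFR replicate 2 (Klkb1, Kng1 and Plg). Calls over all genes were fewer too, with 122 higher and 150 lower without ZLR replicate 2. They were 149 and 172 without ZLR replicate 1, and 96 and 133 without ZFR replicate 2. Without ZFR replicates 3 and 4 they were 87 and 138, and 86 and 149.

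**Figure D4:**
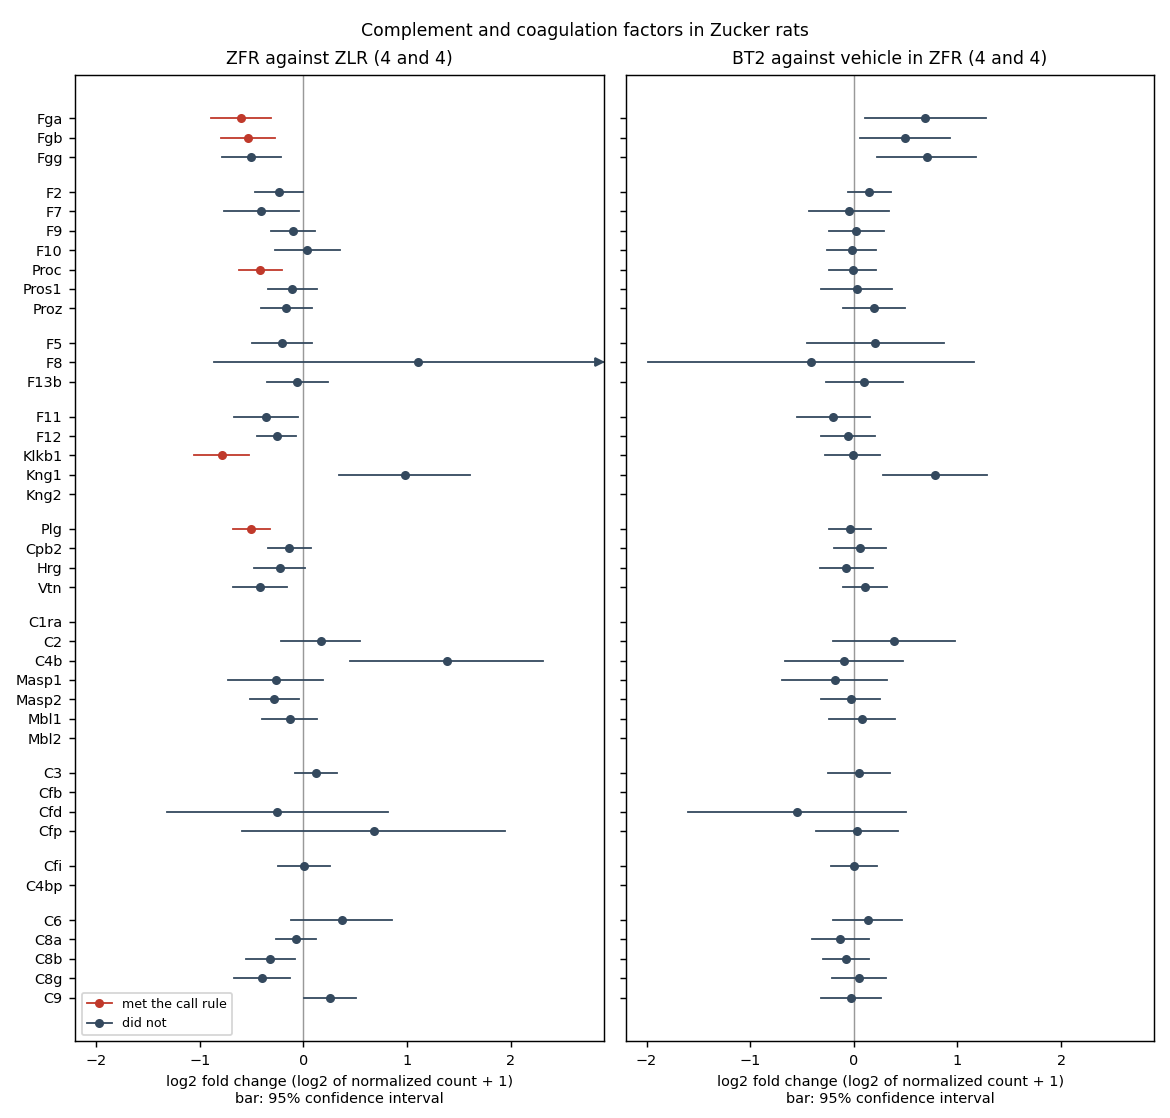
Log2 fold change (log2 of normalised count + 1) of ZFR over ZLR (left) and of BT2 over vehicle in ZFR (right) for the 40 factors, 4 rats in each group, with limma estimates as points and 95% confidence intervals as bars. Red marks the 5 factors past the rule (Klkb1, Plg, Fga, Fgb and Proc, all lower in ZFR); Kng2, C1ra, Mbl2, Cfb and C4bp have blank rows because they were not tested, and the bar of F8 in ZFR runs past the axis.

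Klkb1, for prekallikrein of the contact system, fell furthest of the 5. It was 715.45, 616.37, 653.13 and 741.41 in ZLR and 470.86, 357.69, 396.93 and 356.21 in ZFR. The groups were far apart, with the highest ZFR liver well below the lowest ZLR liver. The means were 681.6 ± 57.1 and 395.4 ± 53.7 (SD, n = 4 and 4), a log2 fold change of -0.79 ± 0.118 (SE; 95% confidence interval -1.05 to -0.53; limma adjusted p = 0.0051). It was -0.69 and -0.89 within the 2 flow cells and past the rule under each of 17 alternatives.

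Plg, for the precursor of plasmin that dissolves fibrin, was 7628.5, 7685.9, 6910.4 and 8040.5 in ZLR. It was 5422.8, 5040.6, 5331.3 and 5550.7 in ZFR. Both groups were tight and did not overlap. Plg stood at -0.50 ± 0.0789 on the log2 scale (SE; 95% confidence interval -0.68 to -0.33; limma adjusted p = 0.00659), with -0.55 and -0.45 within the flow cells, and Plg passed in 14 of 17 alternatives.

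The fibrinogen genes were lower together. Fga was 8277.8, 10360, 10029 and 9962 in ZLR and 7646.7, 5147.7, 6762.4 and 6094.4 in ZFR. Fgb was 10541, 11429, 10406 and 9796.8 in ZLR and 8649, 6118.5, 7773 and 6775.2 in ZFR. Fgg was 7154.7, 7956.3, 8111.5 and 7476.7 in ZLR and 6462.3, 4271.2, 5983.2 and 5215.6 in ZFR. In all 3 genes the groups did not overlap, and among ZFR livers replicate 1 was highest and replicate 2 lowest each time. Fga fell by 0.60 ± 0.13 on the log2 scale (SE; limma adjusted p = 0.0312) and Fgb by 0.53 ± 0.115 (limma adjusted p = 0.0306), while Fgg at -0.50 ± 0.127 did not pass (limma adjusted p = 0.0618). Fga and Fgb each passed in 7 of 17 alternatives.

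In the promoters of these co-varying genes, a short acute phase motif of the STAT family, TTCNNNGAA, and one of the letter strings bound by C/EBP factors, TTGCAACA, were searched for on both strands. Windows of 30 bases around each match are shown 5′ to 3′ on the gene's strand, from RefSeq on GRCm38.p6 of the mouse, with the match in capitals. They lie at chr3:83025909-83025938 (plus) and chr3:83025969-83025998 (plus) for Fga, chr3:83050006-83050035 (minus) for Fgb and chr3:83007561-83007590 (plus) for Fgg.
Fga, STAT string: aggcccccatTTCCTGGAAtgtagattccc
Fga, C/EBP string: aatgctaccatTTGCAACAacttatcggaa
Fgb, STAT string: gactcaatgaTTCGAGGAAccccctgtgtc
Fgg, C/EBP string: actggaagtagTTGCAACAcgcggcctctg
The matches in Fga start 234 and 173 bases before the annotated start, that in Fgb 162 and that in Fgg 152. Promoters of 250 bases before to 50 after the start were held for 32 of the 40 factors (33 promoters). The STAT string was in 8 of these 33 (24.2%), against 8.3% of 32851 mouse promoters, namely C1ra, C8a, F9, Fga, Fgb, Masp2, Pros1 and Vtn. The C/EBP string was in 4 (12.1%), against 0.764%, namely C6, Fga, Fgg and Kng2. A string for HNF1, 2 for HNF4 (CAAAGTCCA and a direct repeat) and another for C/EBP (TTGCGCAA) were in 0 of the 33 and in 0.0396 to 0.475% of all promoters. No string overlapped another within the fibrinogen promoters. These are matches of letters in the mouse, and no rat promoter was read.

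**Figure D5:**
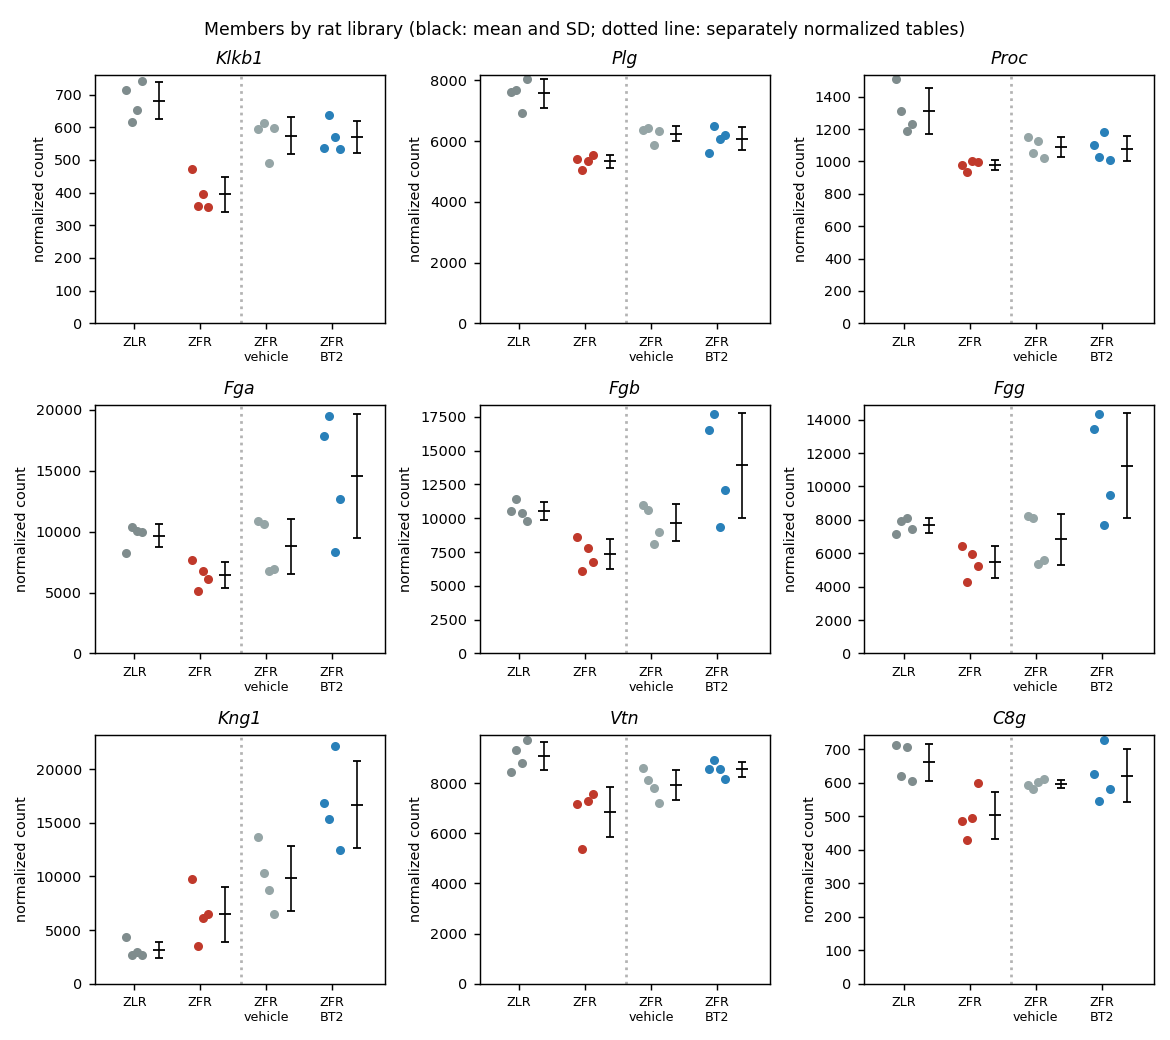
Normalised counts (linear axis from 0) of 9 factors, one point per rat, with the mean and SD in black; the dotted line separates the ZFR and ZLR table from the BT2 and vehicle table, normalised separately. For Klkb1, Plg, Proc, Fga, Fgb, Fgg, Vtn and C8g every ZFR point is below every ZLR point, while Kng1 is higher in ZFR with overlap and the fibrinogen genes and Kng1 are widely spread with BT2.

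Proc, for the anticoagulant protein C, was 1508.4, 1314.7, 1190.4 and 1232.2 in ZLR and 981.07, 936.59, 1002.8 and 995.52 in ZFR. The ZFR livers were bunched below all ZLR livers. Its log2 fold change was -0.42 ± 0.0937 (SE; limma adjusted p = 0.0373), but Proc passed in only 6 of 17 alternatives. Of the other vitamin K-dependent factors, F7 stood at -0.40 and F2 at -0.24, both with an unadjusted p under 0.05, and F10 at 0.04, and none of these passed. Among the remaining roles F11 stood at -0.36, Masp2 at -0.28 and C9 at 0.26, also with an unadjusted p under 0.05, and C3 at 0.12.

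The other factors without overlap did not pass. Vtn, an adhesion protein that also binds the late complement complex, was 8428.7, 9315.1, 8809.5 and 9705.5 in ZLR and 7148.6, 5391, 7274.5 and 7583.1 in ZFR (log2 fold change -0.41, limma adjusted p = 0.0876). C8g was 711.35, 618.49, 705.8 and 605.66 in ZLR and 486.08, 428.29, 495.12 and 598.87 in ZFR (-0.40, limma adjusted p = 0.11). In both, each ZFR liver was lower than each ZLR liver, for C8g by a small margin. F12, which starts the contact system, was 1726.9, 1673.8, 1747.7 and 1887.7 in ZLR and 1562, 1326, 1536.2 and 1466.8 in ZFR (-0.26, limma adjusted p = 0.15). C8b was 1073.4, 1038.3, 1095.6 and 1117.3 in ZLR and 914.81, 729.51, 846.09 and 1001.7 in ZFR (-0.32, limma adjusted p = 0.154). C8a, at -0.08 with overlap, stood nearer to 0 than the other C8 genes.

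The 3 largest differences in size were higher in ZFR, and none passed. Kng1 was 4309.3, 2646.9, 2927.8 and 2688.4 in ZLR and 9730.3, 3483.2, 6120 and 6488.5 in ZFR. Only ZFR replicate 2 lay within the ZLR range, and replicate 1 was the highest liver within each group. The log2 fold change was 0.98 ± 0.281 (SE; limma adjusted p = 0.0964), with 0.79 and 1.17 within the flow cells; reads of Kng1 may be shared with the related kininogen genes of the rat. Without ZFR replicate 2 it passed the rule (1.24, limma adjusted p = 0.0208).

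C4b was 56.441, 86.277, 21.069 and 73.096 in ZLR and 165.28, 83.54, 156.68 and 169.55 in ZFR. The ZFR livers were higher except replicate 2, which lay within the ZLR range (log2 fold change 1.38, limma adjusted p = 0.113). Its close paralogue C4a may share reads. F8 was 12.415, 14.25, 10.534 and 0 in ZLR and 18.021, 12.943, 10.446 and 15.555 in ZFR. The groups overlapped, and the value of 1.10 turned on the 0 in a library of 0.189 M reads (95% confidence interval -0.87 to 3.07).

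Beside these values, 5 of 9 acute phase genes rose in ZFR, namely Lcn2 (log2 fold change 5.66), Orm1 (2.12), Stat3 (0.85), Itih4 (0.66) and Hp (0.48), while the fibrinogen genes were lower. Of 8 hepatocyte markers 3 fell (Apob at -0.39, Cps1 at -0.58 and Ttr at -0.43) and 1 rose (Tf at 0.44), with a median of -0.21 beside -0.20 for the 35 factors. The part of this in the factors' values was not tested.

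Of 40 other pathway genes tested in ZFR against ZLR, 3 rose and 2 fell, beside 1.8% and 2.46% of all genes, and 4 of these are given here. The number that passed was 0 to 4 with 1 replicate left out and 0 to 17 under the other alternatives. Vkorc1, which recycles vitamin K, rose by 0.73 on the log2 scale and C5, the component cleaved to start the membrane attack complex, by 0.46. Serpind1, heparin cofactor II, fell by 0.48 and Serpinf2, the inhibitor of plasmin, fell by 0.38.

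The fourth comparison was BT2 against vehicle in 3-month-old ZFR. Of 35 factors tested 0 passed, and 0 of the 8405 genes tested passed (0%), so the rule gives no background to read against. Adjusted p from limma ran from 0.898 to 0.997 for the factors. At an unadjusted p under 0.05 there were 4 factors, all higher with BT2 (11.4%), against 3.95% of all genes, or 332, with 1.95% higher. No factor had groups without overlap, against 2.96% of all genes. The median log2 fold change was 0.02, and 19 of the 35 lay within 0.1 of 0.

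Those 4 factors were Kng1 and the fibrinogen genes. The 2-sided exact permutation test gave p = 0.0571 for Kng1, 0.0857 for Fgg and 0.114 for Fga and Fgb each. None of the 4 was under 0.05 by that test. Kng1 was 13671, 10355, 8746 and 6506.9 with vehicle and 16814, 15341, 22211 and 12490 with BT2. Only BT2 replicate 4 lay below the highest vehicle liver. The log2 fold change was 0.79 ± 0.227 (SE; 95% confidence interval 0.29 to 1.29; limma adjusted p = 0.898), with 0.43 and 1.14 within the flow cells.

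Fgg was 8241.3, 8095, 5373.1 and 5596.1 with vehicle and 13416, 14331, 7709.5 and 9501.1 with BT2. Fga was 10902, 10604, 6734.5 and 6938.3 with vehicle and 17868, 19475, 8310.7 and 12688 with BT2. In both genes replicates 1 and 2, run on one flow cell, were higher than replicates 3 and 4, run on the other, in each arm. Within flow cells the log2 difference was 0.76 and 0.64 for Fgg and 0.79 and 0.59 for Fga, all towards BT2. Over all livers it was 0.70 ± 0.217 for Fgg and 0.69 ± 0.265 for Fga (SE; limma adjusted p = 0.898 for each), and 0.49 for Fgb. Of the other roles, the vitamin K-dependent factors lay between -0.05 and 0.19 and the membrane attack complex genes between -0.13 and 0.13. Klkb1 (-0.01), Plg (-0.04) and Proc (-0.01), which fell in ZFR against ZLR, were near 0. Of 9 acute phase genes 0 passed and 3 were higher at an unadjusted p under 0.05, and of 35 other pathway genes 0 passed and 0 had an unadjusted p under 0.05.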

How the data were processed

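Per the submitters' processing notes and the study's methods, the authors aligned reads with STAR to mm10 (mouse) or rn6 (rat), quantified genes with Salmon and deposited DESeq2-normalised counts, a signal scaled within each of 4 tables. Replicates were not pooled. Whole reads could not be recovered (72.7 to 78.4% of low mouse values and 74.8 to 91.8% of low rat values were whole multiples of 1 read, tolerance 0.01), so no count model was run. Estimated depth was 42.6 to 78 M reads in mice and 0.188 to 58.5 M in rats, which limits low factors in rats.

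Genes with a mean of at least 10 were tested on log2(normalised count + 1) with limma 3.58.1 (R 4.3.3; linear model, empirical Bayes with trend) per table, with p-values Benjamini-Hochberg adjusted over all genes tested; fold changes are on that scale and understate changes of low genes. The mouse call rule follows the study's methods, the rat rule (adjusted p under 0.05) was chosen here, and both stand in the text. Exact permutation tests were 2-sided. Unadjusted p-values are from limma unless the permutation test is named. Nothing in the labels says more of separate litters or cages, so p-values measure the spread between these animals. Scripts were tested on simulated data.

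The members and gene lists were chosen with earlier results of these data known. Values per liver are given for factors that met a call rule, for those with an unadjusted p under 0.05 and groups without overlap, and for the 3 with the largest log2 fold change in each comparison. C2, Fga and Fgb in WT/Floxed mice and the fibrinogen genes in L-Sirt1 KO mice, which lie outside this rule, were chosen after their values were seen. Alternatives were another pseudocount of 10, no minimum, TMM scaling, quality or precision weights, flow cell, background and replicate terms, other call rules, shallow libraries left out and each replicate left out. Overlapping and paralogous genes may share reads, and antisense overlap (C8a, C8g, Fgg, Masp2, Plg) was not resolved. Promoter and miRNA sequences are RefSeq's on GRCm38.p6. One other pathway gene that met the rat rule is not reported here.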

Additional observations from a re-analysis of the deposited data

Results flagged for a closer look

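Among 48 groups of the named factors' values that were checked for 1 liver apart from the rest, 4 held such a liver, and chance alone gives about 1 in 20. C6 was 1472.3 in WT/Floxed LNA29 replicate 4, against 366 to 776.02 in the other 7 livers, the same liver that had the highest Cfp and Cd5l. Cfd was 861.52 in L-Sirt1 KO saline replicate 4, against 0 to 1.93 in the other saline livers, the same liver that had the highest Adipoq and Saa1. C4b was 83.54 in ZFR replicate 2, against 156.68 to 169.55 in the other ZFR livers. Kng1 was 4309.3 in ZLR replicate 1, against 2646.9 to 2927.8 in the other ZLR livers.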

How the results depend on the processing

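C2, Fga and Fgb in WT/Floxed mice and the fibrinogen genes in L-Sirt1 KO mice, outside the rule on values per liver, were not rerun as single values. The factors named by that rule kept their direction under all alternatives run except Cfd in L-Sirt1 KO mice. Cfd was -0.77 with sample quality weights and ranged from -0.46 to 3.21 with 1 replicate left out. The cause of this and of the changes given next was not tested. In WT/Floxed mice the 1 factor called became 4 with quality weights (C8a, C8b, Fga and Fgg), 0 with a replicate block, 0 at an adjusted p under 0.05 alone, 0 to 3 with 1 replicate left out (0 without saline replicate 1, 3 without LNA29 replicate 1 and 2 without LNA29 replicate 3) and 5 without LNA29 replicates 1 to 3, a choice made after seeing the data. The 0 other pathway genes called there became 1 with quality weights, 2 with background as a covariate, 2 without LNA29 replicates 1 to 3 and 0 to 1 with 1 replicate left out. In L-Sirt1 KO mice the 0 factors called became 0 to 2 with 1 replicate left out, and the 2 other pathway genes became 5 with quality weights, 0 with flow cell as a covariate, 1 with a replicate block, 0 at an adjusted p under 0.05, 0 to 3 with 1 replicate left out and 0 without the 3 livers highest in adipocyte markers (added after seeing the data). In ZFR against ZLR the 5 factors called became 1 with no minimum mean, 1 with TMM scaling, 13 with quality weights, 14 with precision weights, 3 with a replicate block, 1 without libraries under 1 M reads, 11 under the mouse rule and 2 to 5 with 1 replicate left out. The 5 other pathway genes became 1 with no minimum mean, 0 with TMM, 12 with quality weights, 17 with precision weights, 3 with flow cell as a covariate, 0 with a replicate block and 0 to 4 with 1 replicate left out. With BT2 the 0 factors called stayed 0 in all 17 alternatives, and the 0 other pathway genes became 1 without shallow libraries and 1 with precision weights. The genotype interaction's 0 became 3 with quality weights and 0 to 1 with 1 replicate left out.

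Over all genes, 383 higher and 305 lower calls in WT/Floxed mice became 658 and 650 with quality weights, 39 and 17 with a replicate block, 238 and 158 with no minimum and 141 and 75 at an adjusted p under 0.05. In L-Sirt1 KO mice 189 and 108 became 443 and 361, 94 and 51, 113 and 47, and 35 and 4 in the same order, 76 and 27 with flow cell, and 43 and 16 without the 3 adipocyte-high livers. In ZFR 155 and 212 became 1521 and 1076 with precision weights, 607 and 562 with quality weights, 252 and 190 without shallow libraries, 299 and 408 under the mouse rule, 87 and 134 with a replicate block and 117 and 124 with no minimum. With 1 library left out, calls over all genes ran in WT/Floxed mice from 230 and 151 (LNA29 replicate 8) to 492 and 514 (LNA29 replicate 1), with 243 and 163 without LNA29 replicate 6, 259 and 184 without LNA29 replicate 7 and 273 and 178 without saline replicate 1. In L-Sirt1 KO mice they ran from 56 and 21 (LNA29 replicate 4) to 221 and 205 (saline replicate 1), with 64 and 21 without LNA29 replicate 2, 63 and 24 without LNA29 replicate 3, 119 and 46 without saline replicate 2 and 101 and 32 without saline replicate 4. In ZFR against ZLR they were 91 and 143, 96 and 133, 87 and 138, and 86 and 149 without ZFR replicates 1, 2, 3 and 4. Without LNA29 replicates 1 to 3, calls over all genes in WT/Floxed mice were 642 higher and 670 lower. Same-numbered replicates did not deviate together (correlations -0.281 to 0.241, 1 pair of 5 over 0.1 in WT/Floxed mice, 1 of 4 in L-Sirt1 KO mice, 0 of 4 in ZFR and ZLR and 1 of 4 with BT2), so the numbers were not treated as pairs.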
